A study of Mus musculus with 12 samples.

Results

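The D-type cyclins (*Ccnd1*, *Ccnd2*, *Ccnd3*), their kinase partners (*Cdk4*, *Cdk6*), the inhibitors of these kinases (*Cdkn1a*, *Cdkn1b*, *Cdkn2a*, *Cdkn2b*) and *Myc* make up a group of 10 genes, which was read in C57MG cells treated with Rspo2, Wnt3a or both. Members were the probes that carried these gene symbols in the scanner files: 18 of the 41174 distinct probes on the array, for 10 of its 22410 gene symbols. The C57MG line was derived from mouse mammary epithelium. Monolayers were moved to medium without serum and given, for 24 h, recombinant human Rspo2 at 100 ng/ml, recombinant mouse Wnt3a at 100 ng/ml, the 2 proteins together at these doses, or the carrier protein bovine serum albumin (BSA) alone. Each of the 4 groups had 3 monolayers, labeled biological replicates, and RNA from each was hybridized in a single color to its own array of 60-base probes. All 12 arrays thus come from 1 cell line, and the RNA of a monolayer is an average over its cells, in which fewer expressing cells and less RNA per cell cannot be told apart.

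Progress through G1 is driven by complexes of a D-type cyclin with Cdk4 or Cdk6, which phosphorylate the retinoblastoma protein and so free E2F transcription factors to switch on genes of S phase. Proteins of the Cip/Kip family (p21, from *Cdkn1a*, and p27, from *Cdkn1b*) bind cyclin-kinase complexes, and proteins of the INK4 family (p16, from *Cdkn2a*, and p15, from *Cdkn2b*) bind Cdk4 and Cdk6 themselves. Wnt proteins stabilize β-catenin, which acts with Tcf/Lef factors at target genes, and R-spondins strengthen that signal. *Ccnd1* and *Myc* are textbook targets of β-catenin, and Myc with its partner Max binds the E-box letters CACGTG in the promoters of genes for growth and division.

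Promoter sequence from RefSeq (GRCm38.p6, 250 bases before to 50 bases after a start) was at hand for 7 of the 10 members, in 10 windows. The windows were searched on both strands for the Tcf/Lef letters CTTTGAT and CTTTGTT, for CACGTG, and for the E2F letters TTTGGCGC, TTTCCCGC and TTTCGCGC, none of which overlapped. *Cdk4* held the most matches. The 250 bases before its start are shown because they carry CACGTG 4 times, at -172, -118, -98 and -11 from the start, and CTTTGAT on the other strand at -52; capitals mark these letters. The second sequence lies before the more upstream start of *Cdkn1a*, a classical target of p53. It held none of the searched letters, and its capitals mark 2 matches to the p53 half-site motif, a motif added after the sequence had been seen.
Cdk4, chr10:127063285-127063534, + strand: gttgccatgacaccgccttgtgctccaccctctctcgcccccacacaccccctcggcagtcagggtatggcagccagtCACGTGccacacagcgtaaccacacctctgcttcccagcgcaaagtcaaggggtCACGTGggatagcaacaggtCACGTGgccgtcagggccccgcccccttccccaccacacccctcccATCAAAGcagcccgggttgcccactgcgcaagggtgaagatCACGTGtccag
Cdkn1a, chr17:29090729-29090978, + strand: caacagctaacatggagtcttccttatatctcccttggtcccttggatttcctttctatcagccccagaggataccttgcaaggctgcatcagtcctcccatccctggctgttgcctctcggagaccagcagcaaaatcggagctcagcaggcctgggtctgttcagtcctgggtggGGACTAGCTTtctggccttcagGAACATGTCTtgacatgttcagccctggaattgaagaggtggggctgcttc

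CACGTG occurred in 7.15% of the 32851 mouse promoters of the table, and at least 4 times in 8 of them. CTTTGAT occurred in 3.73%, CTTTGTT in 5.85%, TTTGGCGC in 0.514%, TTTCCCGC in 1.07% and TTTCGCGC in 0.323%. The p53 half-site was found in 8.36%, and at least 2 of them in 0.359%. Of the other windows of members, *Cdk6* held CACGTG at -220. The window before the more upstream start of *Cdkn2a* held TTTCCCGC at -99, and the window before its more downstream start held none of the searched letters. Which product of the gene each start serves was not read. A match is a description of the letters and does not show a site in use.

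The signal of a probe is given as a level, the log2 of its background-subtracted intensity over that of the 75th percentile on the same array, so that a difference of 1 is a 2-fold change. That percentile lay between 774 and 1146 intensity units, and between 51.3% and 64.2% of probes were well above background on an array. The arrays sat on 3 slides, with the BSA arrays and Rspo2 replicate 1 on the first, Rspo2 replicates 2 and 3 and Wnt3a replicates 1 and 2 on the second, and Wnt3a replicate 3 and the 3 arrays with both proteins on the third. BSA therefore shared a slide with Rspo2 but with neither of the other treatments. *Axin2*, a feedback inhibitor induced by β-catenin, was read as a check of the treatment. It was well above background on the 3 arrays with both proteins and on none of the other arrays. Its signal under the joint treatment exceeded that with BSA by a factor of 9.39 or more. This is a lower bound without a p-value, because *Axin2* was not above background with BSA. The check covers the joint treatment only, and not Rspo2 or Wnt3a given alone. The epithelial label was only partly borne out by the 11 markers listed for it. *Krt8* and *Krt14* were well above background on all 12 arrays, whereas *Cdh1*, which encodes E-cadherin, and *Esrp1* were well above it on none. Among 11 mesenchymal markers, 10 were above background throughout.

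Of the 18 member probes 15 were detected, that is, flagged as well above background throughout at least 1 group of 3 arrays, and they stood for 8 of the 10 genes. The INK4 genes *Cdkn2a* (10 spots of 1 probe) and *Cdkn2b* (1 probe) were well above background on 0 of 12 arrays, with levels from -7.91 to -6.61 and from -7.86 to -5.51, so no comparison could be made for them. The dimmest *Cdkn1b* probe (A_52_P673863) was above background on 1 array, with both proteins. No member probe was saturated.

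Each treatment was compared with BSA in a limma model of all 12 arrays, with p-values adjusted over the 22751 detected probes. A probe passed the test at an adjusted p under 0.05. With Rspo2 alone 1 of the 15 probes passed and fell, where 16.8% of all detected probes passed. With Wnt3a alone 4 rose and none fell, where 31.5% of all passed, and with both proteins 5 rose and none fell, where 39.2% of all passed. At a 2-fold threshold as well, *Ccnd1* was called with Wnt3a and with both proteins, where 2.52% and 5.08% of all probes were called, and no member was called with Rspo2, where 0.721% were. Counted in both directions, the shares of members with an adjusted p under 0.05 were not above those of the whole array. In 1 direction, 5.92% of all detected probes fell with Rspo2, 18.3% rose with Wnt3a and 21.9% rose with both proteins. Whether the member shares differed from those of the whole array, in 1 direction or at 2-fold, was not tested. The median log2 change of the 15 probes was 0.16 with Rspo2, 0.20 with Wnt3a and 0.16 with both, against 0.01, -0.00027 and 0.04 over all probes. The treated and BSA arrays did not overlap at 8, 10 and 5 of the 15 probes with Rspo2, Wnt3a and both proteins, where 43.5%, 45.5% and 54% of all probes did not overlap. The 3 comparisons share the same BSA arrays.

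**Figure D1:**
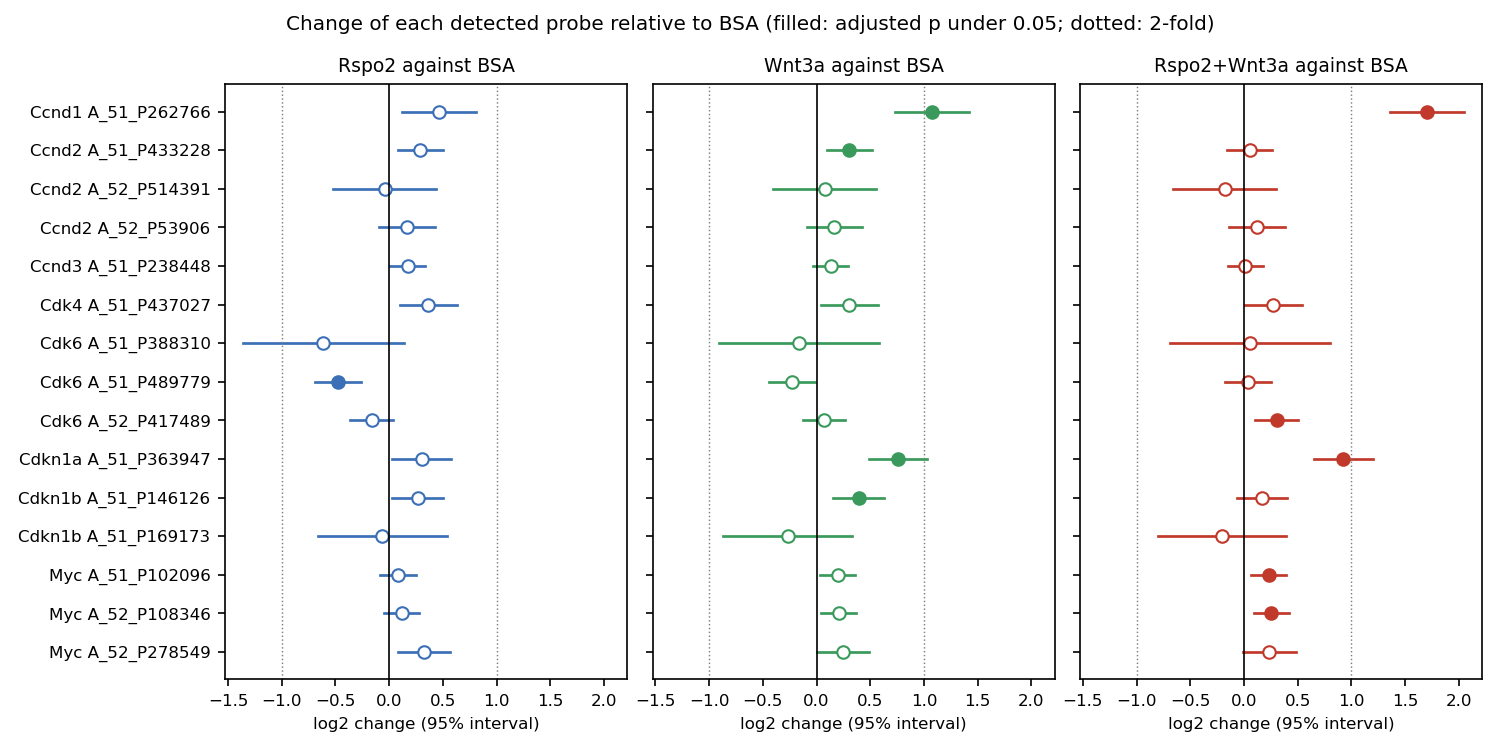
The plot of changes shows, for each of the 15 detected probes (rows), the log2 change relative to BSA with Rspo2, Wnt3a and both proteins (panels), with 95% intervals from the limma fit; filled points had an adjusted p under 0.05 and dotted lines mark 2-fold. *Ccnd1* and *Cdkn1a* lie farthest to the right with Wnt3a (1.08 and 0.76) and with both proteins (1.70 and 0.93).

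*Ccnd1*, which encodes cyclin D1, was the member with the largest change, rising 2.11-fold with Wnt3a and 3.26-fold with both proteins. Its probe (A_51_P262766, 10 spots; gene at chr7:144929931-144939831 in GRCm38.p6) read 3.39, 3.52 and 3.30 on the BSA arrays and 3.75, 3.73 and 4.12 with Rspo2. It read 4.23, 4.55 and 4.67 with Wnt3a, and 5.36, 5.07 and 4.90 with both proteins. The 4 groups did not overlap and were ordered BSA, Rspo2, Wnt3a, both. The spots of 1 array differed by an SD of 0.024 to 0.044, less than the spread between monolayers, whose SD was 0.11 with BSA and 0.22 to 0.24 in the treated groups. The change from BSA was 1.08 (SE 0.16, adjusted p = 0.00118) with Wnt3a and 1.70 (SE 0.16, adjusted p = 2.16e-05) with both proteins. With Rspo2 alone the change was 0.46 (95% interval 0.12 to 0.80, adjusted p = 0.0628) and did not pass. A direct comparison of Wnt3a with Rspo2 gave 0.62 (SE 0.16, adjusted p = 0.0885).

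Within slides, *Ccnd1* differed by 0.34 between Rspo2 replicate 1 and the BSA mean, by 0.46 between Wnt3a and Rspo2, and by 0.44 between both proteins and Wnt3a. All 3 steps ran upward. In a fit with slide as a term the change with both proteins was 1.25 (adjusted p = 0.127) and that with Wnt3a 0.81 (adjusted p = 0.263), and no member probe passed in any comparison, where 0.431%, 0.796% and 2.51% of all probes passed with Rspo2, Wnt3a and both against BSA, 1.38% for both against Wnt3a, 0.655% for Wnt3a against Rspo2 and 0.743% for the interaction. For Wnt3a and the combination against BSA, slide and treatment are joined only through the Rspo2 and Wnt3a arrays that span slides. *Ccnd1* passed in 24 of 25 alternatives with both proteins and in 22 of 25 with Wnt3a. Among these it passed in both comparisons when any 1 of the 12 arrays was left out. The threshold was on the adjusted p in every alternative except the methods' t-test without adjustment, where it was on the unadjusted p. The 2-fold call with Wnt3a was less firm: the change was 0.98 without Wnt3a replicate 3, 0.82 with quantile normalization and 0.96 with another percentile, each under 2-fold.

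The other D-type cyclins moved little. *Ccnd2*, encoding cyclin D2, had 3 probes. The probe A_51_P433228 read -1.01, -1.03 and -1.15 with BSA, -0.82, -0.87 and -0.63 with Rspo2, -0.83, -0.75 and -0.69 with Wnt3a, and -0.90, -0.98 and -1.15 with both proteins. Either protein alone thus gave levels above all BSA arrays, while the arrays with both overlapped BSA. The rise with Wnt3a was 0.31 (SE 0.09, adjusted p = 0.0309), against 0.29 with Rspo2 (adjusted p = 0.057) and 0.05 with both (95% interval -0.16 to 0.26). The rise with Wnt3a did not pass when BSA replicate 2 or 3 or Wnt3a replicate 2 or 3 was left out (0.26 to 0.32, adjusted p 0.0617 to 0.105). Nor did it pass in 7 of the 13 other alternatives of processing or test, among them scaling by another percentile, though it passed with quantile normalization. Before scaling, the median intensity of the probe was 486 with BSA and 500 with Wnt3a. Another probe (A_52_P53906), 9509 bases away, gave 0.16, 0.17 and 0.12 with the 3 treatments, and the dimmest probe (A_52_P514391, well above background on 11 arrays) gave -0.04, 0.08 and -0.18, none of which passed. *Ccnd3*, encoding cyclin D3 (A_51_P238448), ranged from 1.98 to 2.26 over the 12 arrays, with changes of 0.17, 0.13 and 0.01 that did not pass.

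The kinases gave a mixed picture. *Cdk4* (A_51_P437027) read 4.18, 4.43 and 4.33 with BSA, 4.60, 4.58 and 4.85 with Rspo2, 4.52, 4.61 and 4.73 with Wnt3a, and 4.79, 4.57 and 4.41 with both proteins. Each array with a single protein was above every BSA array, and 1 array with both overlapped BSA. The changes were 0.37 (95% interval 0.10 to 0.63, adjusted p = 0.0577), 0.31 (0.04 to 0.57, adjusted p = 0.0725) and 0.27 (0.01 to 0.54, adjusted p = 0.0909), so that *Cdk4* did not pass in any of the 3 comparisons.

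*Cdk6* was the member that fell with Rspo2. Its probe A_51_P489779, named through the cDNA AK030810, read 2.43, 2.27 and 2.22 with BSA, 1.99, 1.83 and 1.67 with Rspo2, 2.06, 2.17 and 1.997 with Wnt3a, and 2.24, 2.41 and 2.38 with both proteins. The Rspo2 arrays were below all others, the Wnt3a arrays lay between, and the arrays with both overlapped BSA. The fall with Rspo2 was a log2 change of -0.48 (SE 0.10, adjusted p = 0.0182), or 1.39-fold, and the change with both was 0.04 (95% interval -0.18 to 0.26). Without BSA replicate 1 or Rspo2 replicate 3 the change was -0.42 or -0.40, respectively, and did not pass (adjusted p 0.0641 and 0.0688). The fall was also short of the threshold in 5 of the 13 other alternatives. Within the first slide the Rspo2 array differed from the BSA mean by -0.32. Of the 2 probes named through the RefSeq transcript, A_52_P417489 gave -0.16 with Rspo2, which did not pass, and rose by 0.30 with both proteins (SE 0.09, adjusted p = 0.021), with levels of -0.48, -0.64 and -0.77 with BSA and -0.23, -0.36 and -0.40 with both. That rise did not pass without BSA replicate 2 or 3 or without replicate 1 or 2 of the combination (0.23 to 0.32, adjusted p 0.0508 to 0.0853), and was also lost in 7 of the 13 other alternatives. The dim probe A_51_P388310, 7618 bases from A_51_P489779, gave -0.61, -0.16 and 0.05 with Rspo2, Wnt3a and both, the same directions as A_51_P489779, but none passed and the interval with Rspo2 was wide (-1.36 to 0.13).

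Among the inhibitors, *Cdkn1a* rose with Wnt3a and with both proteins, beside *Ccnd1*. Its product p21 restrains cyclin-kinase complexes and also helps cyclin D1 assemble with Cdk4. The probe (A_51_P363947, 10 spots; gene at chr17:29090979-29100722) read 2.79, 2.67 and 2.74 with BSA and 2.86, 3.05 and 3.20 with Rspo2. It read 3.54, 3.65 and 3.28 with Wnt3a and 3.66, 3.49 and 3.82 with both proteins. All treated arrays were above all BSA arrays, and the Wnt3a and combination arrays overlapped each other above the Rspo2 arrays. The change was 0.76 (SE 0.12, adjusted p = 0.00191), or 1.69-fold, with Wnt3a and 0.93 (SE 0.12, adjusted p = 0.000289), or 1.90-fold, with both. With Rspo2 it was 0.30 (95% interval 0.03 to 0.58, adjusted p = 0.109). On the second slide the mean of the Wnt3a arrays was 0.47 above that of the Rspo2 arrays, and on the third the mean of the arrays with both was 0.38 above the Wnt3a array. With slide as a term the change with both was 0.97 (adjusted p = 0.0692). The changes with Wnt3a and with both passed when any 1 array was left out, and fell short in 3 and 1 of the 13 other alternatives, respectively.

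*Cdkn1b*, encoding p27, rose by 0.39 with Wnt3a (SE 0.11, adjusted p = 0.0177) at its bright probe, A_51_P146126, named through the cDNA AK169586. That probe read 3.11, 2.76 and 2.86 with BSA, 3.04, 3.13 and 3.36 with Rspo2, 3.31, 3.32 and 3.27 with Wnt3a, and 3.04, 3.08 and 3.11 with both proteins. The Wnt3a arrays were above the BSA arrays, the Rspo2 arrays and the arrays with both overlapped BSA, and BSA replicate 1 stood above the other 2 BSA arrays. The call was lost without BSA replicate 2 or 3 or Wnt3a replicate 2 (0.32 to 0.38, adjusted p 0.0542 to 0.0688). It was also lost in 7 of the 13 other alternatives of processing or test, among them quantile normalization and scaling by another percentile. Before scaling, the median intensity of the probe was 7849 with BSA and 7764 with Wnt3a. The changes with Rspo2 and with both were 0.26 (adjusted p = 0.104) and 0.16 (adjusted p = 0.245). The dim probe A_51_P169173 (10 spots, well above background on 11 arrays) lay 4112 bases away and gave -0.07, -0.27 and -0.20, with intervals that together spanned -0.87 to 0.54. Its spots differed within an array by an SD of 0.11 to 0.20.

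**Figure D2:**
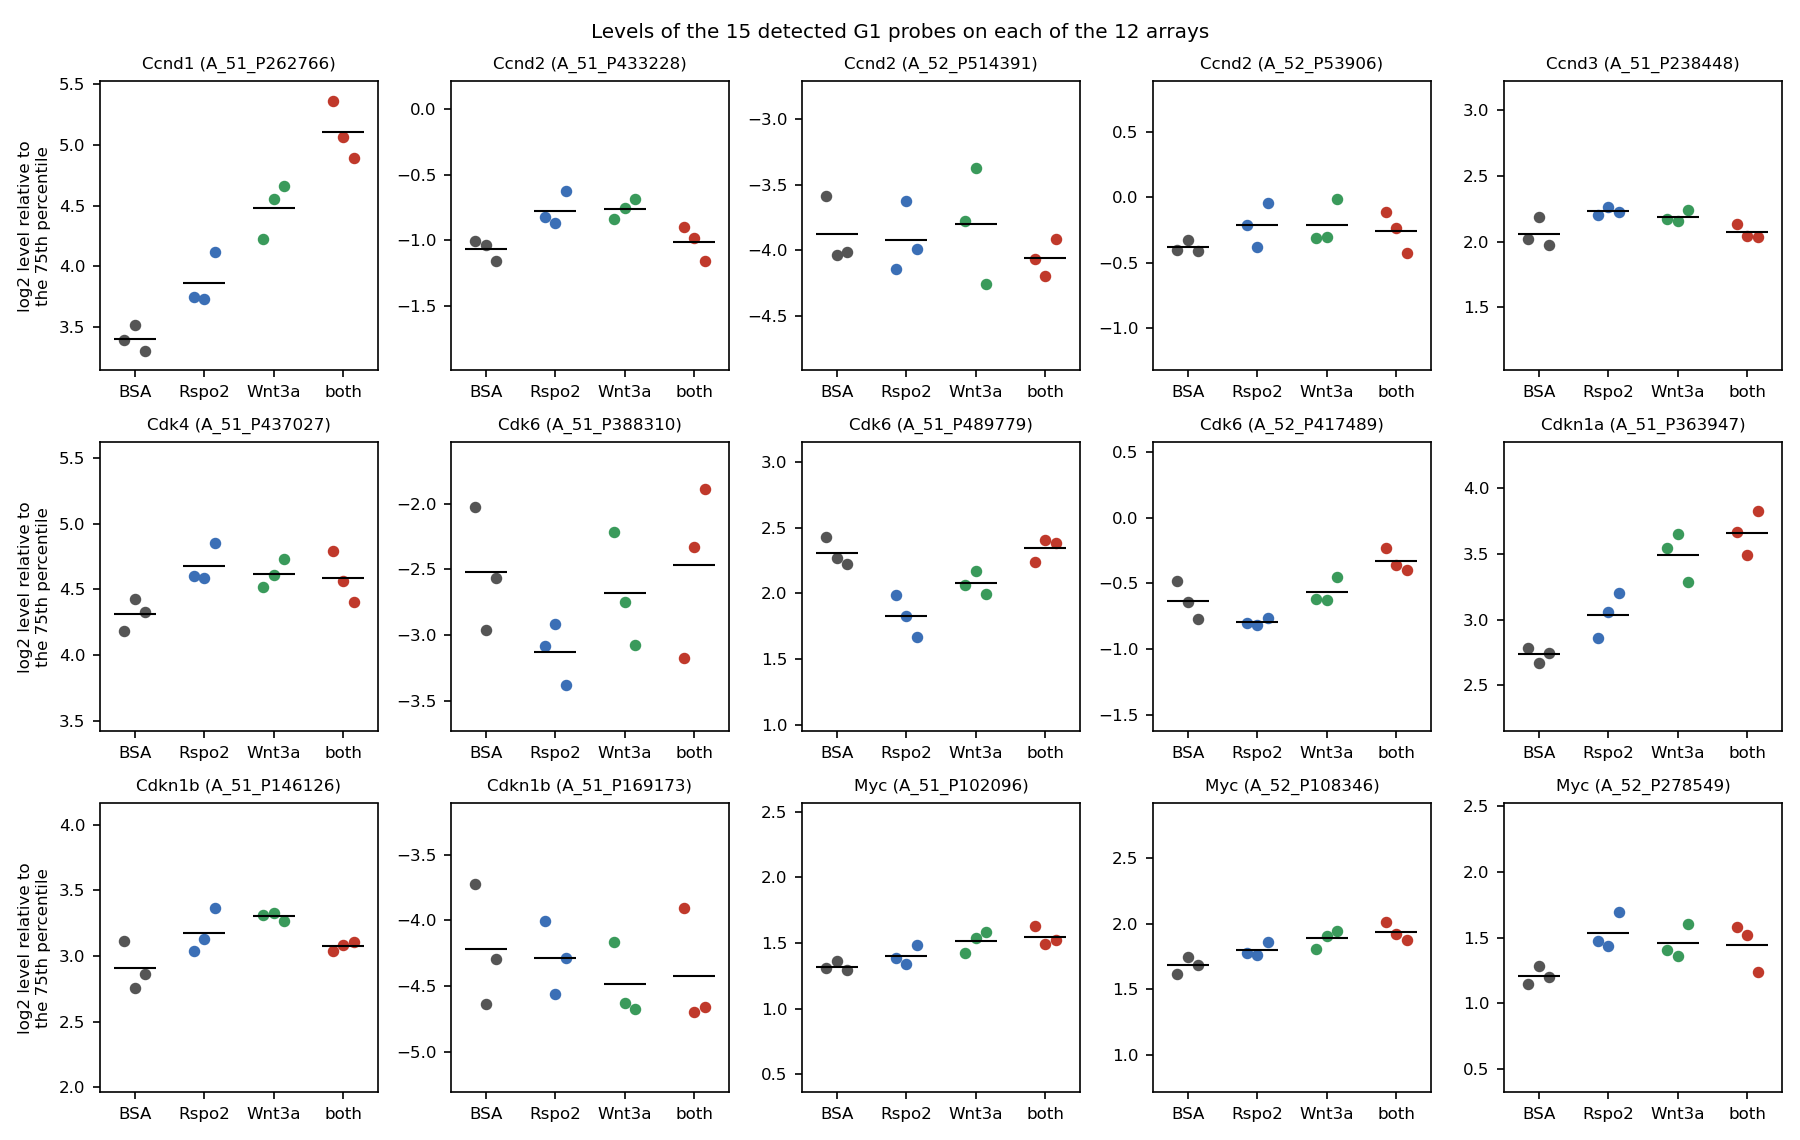
The plot of levels shows each of the 12 arrays (points, 3 per group) for each of the 15 detected probes, as the log2 level relative to the 75th percentile; lines are group means, and each panel has its own vertical range. *Ccnd1* rises stepwise from BSA (3.30 to 3.52) to both proteins (4.90 to 5.36), *Cdkn1a* is higher with Wnt3a and both, and *Cdk6* (A_51_P489779) is lowest with Rspo2.

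*Myc* differed by no more than 1.25-fold at any probe in a comparison with BSA. Its 3 probes lie within 591 bases of each other (gene at chr15:61985341-61990361). A_52_P108346 read 1.62, 1.74 and 1.69 with BSA, 1.78, 1.76 and 1.86 with Rspo2, 1.81, 1.91 and 1.95 with Wnt3a, and 2.01, 1.92 and 1.88 with both proteins. A_51_P102096 (10 spots) read 1.31, 1.36 and 1.29, then 1.39, 1.34 and 1.48, then 1.43, 1.54 and 1.58, and 1.63, 1.49 and 1.52 in the same order of groups. At both probes the arrays with Wnt3a and with both proteins were above every BSA array. The rise with both proteins was 0.25 (SE 0.07, adjusted p = 0.0189), or 1.19-fold, at A_52_P108346 and 0.23 (SE 0.07, adjusted p = 0.0317), or 1.17-fold, at A_51_P102096.

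With Wnt3a the same probes gave 0.21 (95% interval 0.04 to 0.37, adjusted p = 0.0542) and 0.20 (0.03 to 0.36, adjusted p = 0.0677), and with Rspo2 0.12 and 0.08, none passing. The third *Myc* probe, A_52_P278549, read 1.15, 1.28 and 1.20 with BSA, 1.47, 1.44 and 1.69 with Rspo2, 1.41, 1.36 and 1.61 with Wnt3a, and 1.58, 1.52 and 1.24 with both. There the Rspo2 arrays were above BSA and replicate 3 of the combination fell within the BSA range; the changes of 0.32, 0.25 and 0.24 did not pass (adjusted p 0.0669, 0.117 and 0.119). The *Myc* calls were small and not stable. At A_51_P102096 the call was lost when any 1 of the BSA arrays or of the arrays with both proteins was left out (0.19 to 0.26, adjusted p 0.0523 to 0.113), and at A_52_P108346 when BSA replicate 1 or replicate 1 of the combination was left out (0.22 in either case, adjusted p 0.0623 to 0.0719). Of the 13 other alternatives, 8 and 7 also lost the call at these 2 probes, respectively. Within the third slide the mean of the 3 arrays with both differed from the Wnt3a array by -0.03 at A_51_P102096 and by -0.01 at A_52_P108346.

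**Figure D3:**
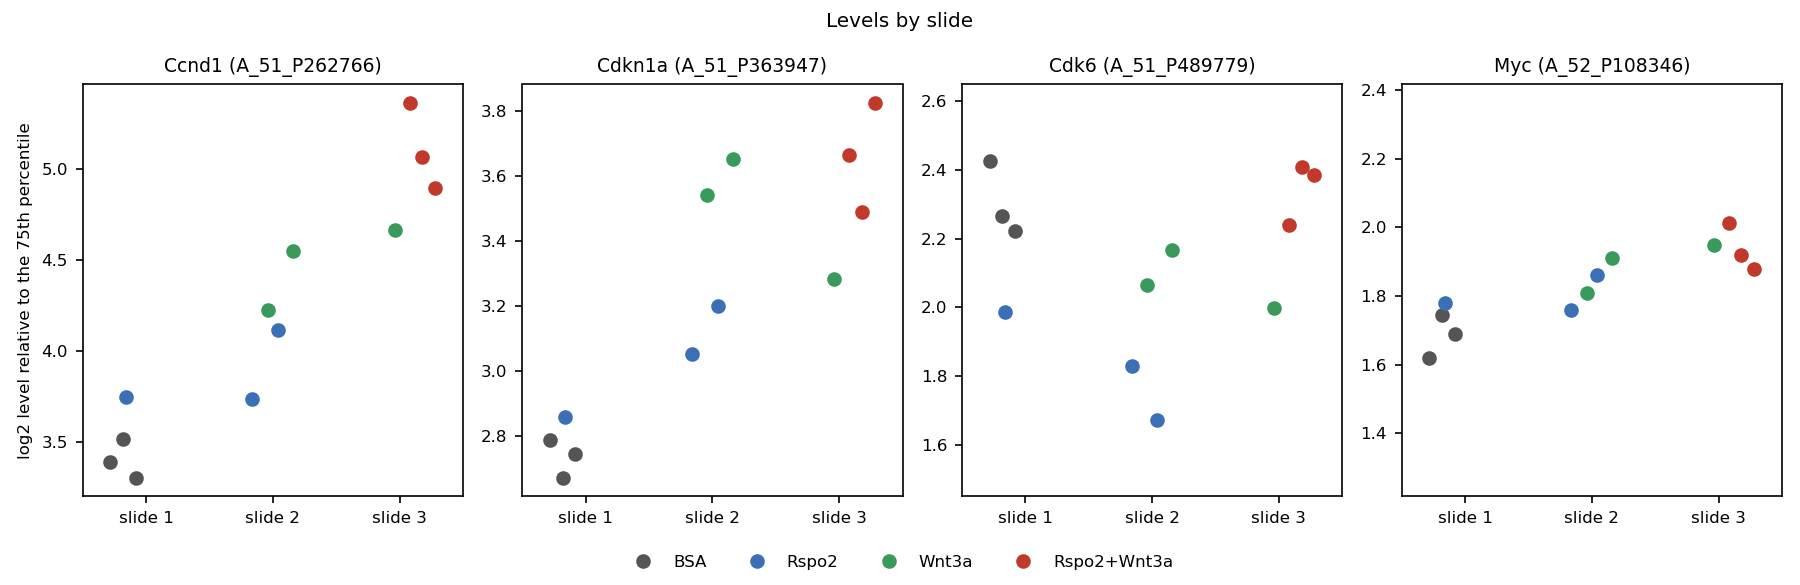
The plot of levels by slide shows the log2 level relative to the 75th percentile for probes of *Ccnd1*, *Cdkn1a*, *Cdk6* and *Myc* on each array, placed by slide and colored by treatment. For *Ccnd1* the difference of means is 0.34 on slide 1 (Rspo2 less BSA), 0.46 on slide 2 (Wnt3a less Rspo2) and 0.44 on slide 3 (both less Wnt3a). The *Myc* arrays of slide 3 overlap.

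What Rspo2 added to Wnt3a was read from the arrays with both proteins against those with Wnt3a. *Ccnd1* was the 1 member probe of 15 that passed, where 4.27% of all detected probes did, and no member was called at 2-fold, where 0.747% of all were. Its difference was 0.63 (SE 0.16, adjusted p = 0.0484), or 1.54-fold, and the lowest array with both, at 4.90, was above the highest with Wnt3a, at 4.67. This call stood at the threshold: it was lost when any 1 array other than Rspo2 replicate 3 or Wnt3a replicate 3 was left out (0.50 to 0.73, adjusted p 0.0505 to 0.158), and in 7 of the 13 other alternatives. For *Cdkn1a* the difference was 0.17 (95% interval -0.11 to 0.44) and for the *Myc* probes it was -0.01 to 0.05, with the widest interval from -0.26 to 0.24. The groups did not overlap at 6 of 15 probes, where 21.4% of all probes did not overlap.

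Between the single proteins, Wnt3a against Rspo2, 0 of 15 probes passed in the limma fit, where 1.47% of all probes did; 4 had an unadjusted p under 0.05, where 14.5% of all did, and the methods' t-test gave 3 at that threshold without adjustment, where 8.11% of all passed. These were not differences shown to be absent: the interval at *Ccnd1* was 0.27 to 0.96 and that at *Cdkn1a* was 0.18 to 0.73.

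The interaction, that is, the joint change less the sum of the separate changes, passed for 2 of 15 probes, where 8.90% of all probes did. At *Cdk6* A_51_P489779 it was 0.74 (SE 0.14, adjusted p = 0.0142): the changes from BSA were -0.48 with Rspo2, -0.23 with Wnt3a and 0.04 with both. At *Ccnd2* A_51_P433228 it was -0.54 (SE 0.13, adjusted p = 0.0346): rises of 0.29 and 0.31 with the single proteins stood beside 0.05 with both. The *Cdk6* value passed whichever array was left out (0.67 to 0.82), and the *Ccnd2* value did not pass without any 1 of 8 arrays (-0.59 to -0.47, adjusted p 0.0543 to 0.0828), namely the 3 BSA arrays, Rspo2 replicates 2 and 3, Wnt3a replicate 2, and replicates 2 and 3 of the combination. For *Ccnd1* the interaction was 0.17 (95% interval -0.32 to 0.65), so that on the log2 scale its change with both proteins did not depart detectably from the sum of the separate changes.

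**Figure D4:**
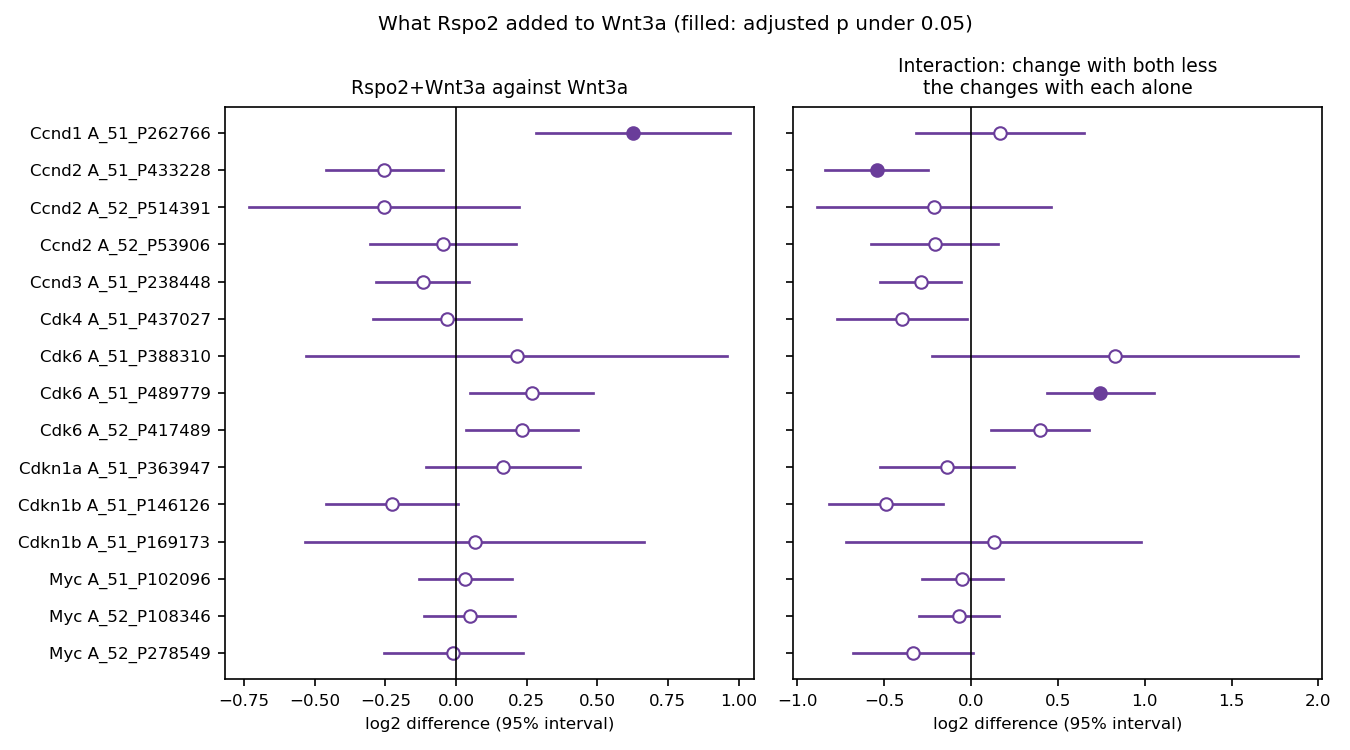
The plot of added effects gives, for each of the 15 detected probes, the log2 difference between both proteins and Wnt3a (left) and the interaction (right), with 95% intervals; filled points had an adjusted p under 0.05. *Ccnd1* is filled on the left at 0.63, and *Ccnd2* A_51_P433228 at -0.54 and *Cdk6* A_51_P489779 at 0.74 on the right.

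The genes around the members were read through 4 lists, each gene by its brightest detected probe. Of 22 other G1/S regulators 21 were detected. With both proteins 8 rose, 1 fell and 12 did not pass, with a median change of 0.10; with Wnt3a 6 rose and 1 fell, with a median of 0.07; and with Rspo2 2 rose and none fell, with a median of 0.08. Over all probes tested 21.9% rose and 17.3% fell with both, 18.3% and 13.2% with Wnt3a, and 10.9% and 5.92% with Rspo2. *Ccne2*, encoding cyclin E2, rose by 0.65 with both proteins (SE 0.15, adjusted p = 0.00541). *Cdkn2d*, encoding the INK4 inhibitor p19, rose by 0.50, 0.68 and 0.57 with Rspo2, Wnt3a and both (adjusted p = 0.0128, 0.000784 and 0.000817). The other gene that rose with Rspo2, named after its value was seen, was *Cdkn2c*, encoding the INK4 inhibitor p18 (0.42, adjusted p = 0.0331). *E2f2*, encoding an activating E2F factor, was the gene that fell, by a log2 change of -0.72 with both (adjusted p = 0.000996) and -0.35 with Wnt3a (adjusted p = 0.0463).

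In the Myc network, the partners and antagonists of Myc, 9 of 11 genes were detected. With both proteins 3 rose and 3 fell, where 21.9% of all probes rose and 17.3% fell. With Wnt3a 3 rose and 1 fell (18.3% and 13.2% of all), and with Rspo2 4 rose and 1 fell (10.9% and 5.92% of all). Median changes were -0.26, -0.02 and 0.34. *Mga*, encoding a Max-binding repressor, changed by -0.51, -0.61 and -0.75 with Rspo2, Wnt3a and both (adjusted p = 0.0452, 0.0125 and 0.00305). *Mnt*, another Max-binding repressor, changed by -0.58 with both (adjusted p = 0.0081), and *Mxd3*, of the Mad family of Max partners, rose by 0.56 (adjusted p = 0.00395). *Mycn* was well above background on 1 array and *Mycl1* on none.

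All 12 Myc target genes of the list, most of them for ribosome production and growth, were detected. With both proteins 7 rose and none fell, where 21.9% of all probes rose and 17.3% fell. With Wnt3a 8 rose and none fell (18.3% and 13.2% of all), and with Rspo2 2 rose (10.9% of all). The medians were 0.30, 0.35 and 0.16. The 2 with Rspo2 were *Eif4e*, which encodes the cap-binding translation factor (0.41, adjusted p = 0.0152), and *Nme1*, a nucleoside diphosphate kinase gene (0.39, adjusted p = 0.04998). With both proteins *Eif4e* rose by 0.59 (adjusted p = 0.000315), *Nme1* by 0.56 (adjusted p = 0.00441) and *Nop58*, for a protein of nucleolar ribonucleoprotein particles, by 0.55 (adjusted p = 0.00423). None reached 2-fold.

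*Cdkn1a* belongs to the genes that p53 activates, and 12 other p53 target genes were detected. With both proteins 5 rose and 1 fell, where 21.9% of all probes rose and 17.3% fell. With Wnt3a 5 rose and none fell (18.3% and 13.2% of all), and with Rspo2 2 rose and 1 fell (10.9% and 5.92% of all). The medians were 0.34, 0.29 and 0.04. *Plk2*, a Polo-like kinase gene, rose by 0.98 with both (SE 0.09, adjusted p = 1.66e-05) and *Gadd45a*, a gene of growth arrest, by 0.82 (adjusted p = 0.000427), while *Sesn1*, a stress-response gene, changed by -0.62 (adjusted p = 0.00036). These 3 were also the genes of the list that passed for both proteins against Wnt3a, where 4.27% of all probes passed. Their differences there were 0.52, 0.53 and -0.38 (adjusted p = 0.00651, 0.0281 and 0.0338). *Trp53* itself gave 0.18, 0.14 and 0.26 with Rspo2, Wnt3a and both, none passing. No gene of the 4 lists was called at 2-fold in a comparison with BSA.

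**Figure D5:**
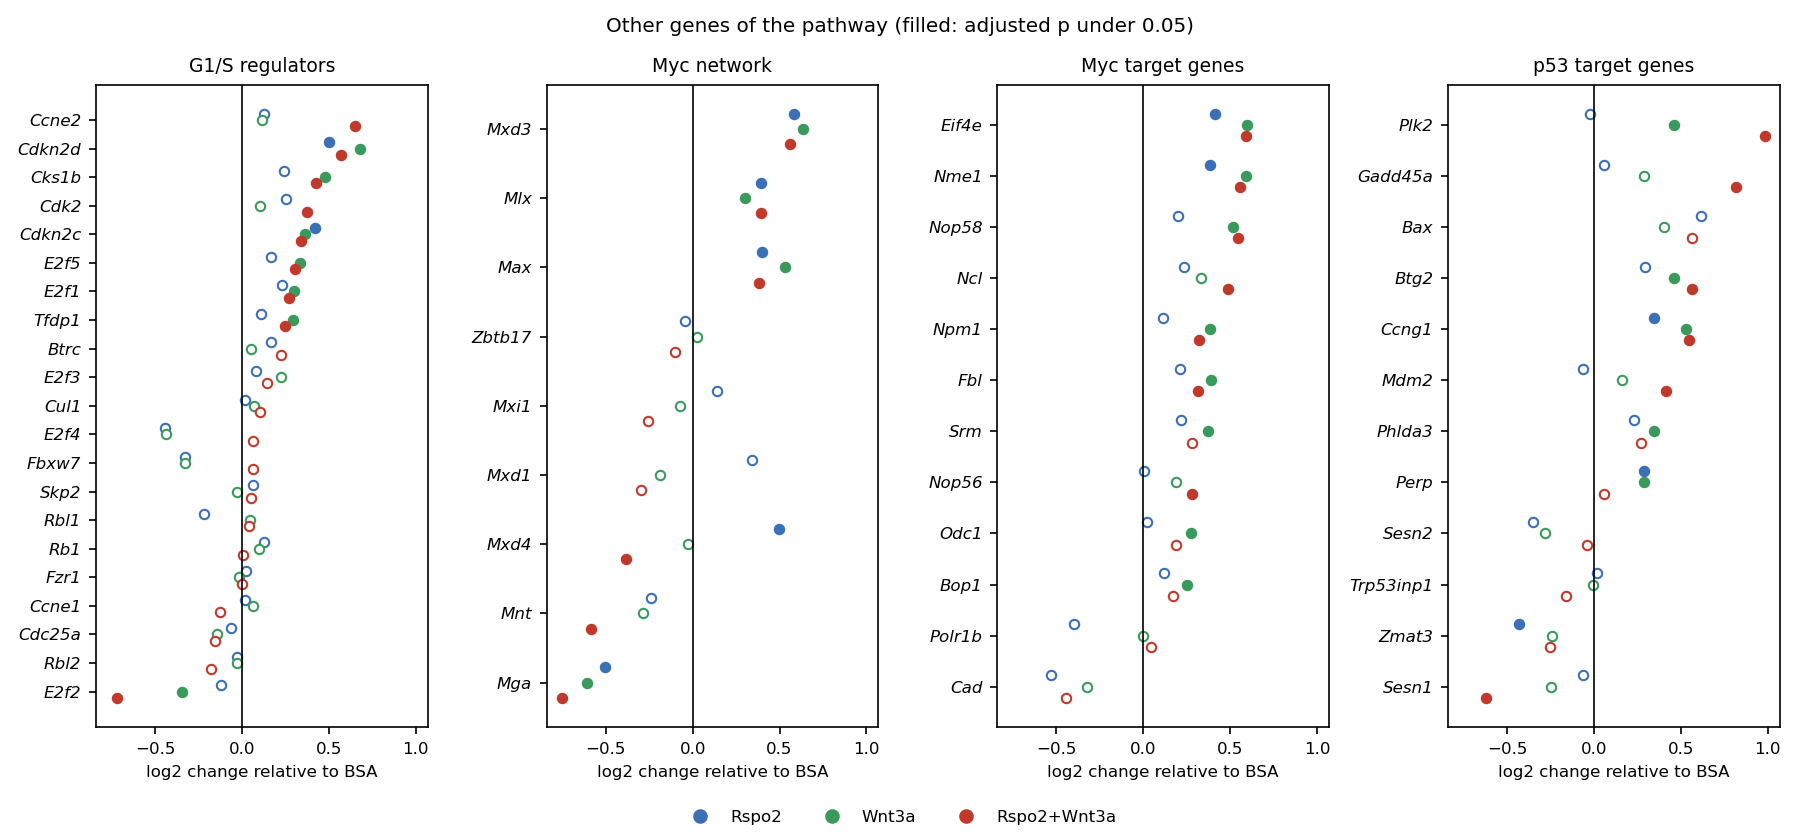
The plot of lists shows the log2 change relative to BSA for each detected gene (rows) of the G1/S regulators, the Myc network, the Myc target genes and the p53 target genes, with Rspo2, Wnt3a and both proteins as blue, green and red points; filled points had an adjusted p under 0.05. Changes stay within 1 log2 unit, from -0.75 (*Mga*, both proteins) to 0.98 (*Plk2*, both proteins).

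The genes whose levels ran most like *Ccnd1* over the 12 arrays, among 18710 named probes above background on every array, were *S100a10* (Pearson r = 0.996), *Eif6* (0.993), *Sgcd* (0.989), *Taf1d* (0.989) and *Nrp1* (0.988). These coefficients describe arrays that also share groups and slides. With both proteins *S100a10* changed by 0.88, *Eif6* by 1.21, *Sgcd* by 1.27, *Taf1d* by 0.71 and *Nrp1* by 1.09, each less than the 1.70 of *Ccnd1*. Marker lists of other cell types were summed beside the members, as levels on the linear scale relative to the 75th percentile, with the groups in the order BSA, Rspo2, Wnt3a and both. The 11 epithelial markers, of which *Cdh1* and *Esrp1* were never above background, summed to 10.3 to 10.7, 9.83 to 12.3, 15.3 to 17.0 and 22.6 to 26.0. Nearly all of that sum came from *Krt14*, a basal keratin, whose mean log2 level was 3.35, 3.41, 4.01 and 4.59. The list went both ways: *Krt8*, the other marker of it above background on all 12 arrays, fell, by 0.69 with Wnt3a (adjusted p = 0.00896) and by 1.15 with both (adjusted p = 0.000366). The 11 mesenchymal markers, of which *Thy1* was never above background, summed to 692 to 701, 743 to 839, 780 to 854 and 786 to 843. This list also went both ways: with both proteins 2 genes rose and 3 fell, where 21.9% and 17.3% of all probes did. *Acta2* rose by 0.78 (adjusted p = 7.26e-05), whereas *Pdgfra* changed by -1.37 (adjusted p = 8.77e-06). The 4 leukocyte markers stayed between 0.283 and 0.405 on all arrays. The 3 endothelial markers, of which *Kdr* was never above background and *Pecam1* on 1 array, summed to 2.43 to 2.59 with BSA and 1.63 to 1.88 in the treated groups. Nearly all of this sum came from *Cdh5* alone, which changed by -0.41, -0.49 and -0.55 with Rspo2, Wnt3a and both (adjusted p = 0.0116, 0.00131 and 0.000259). The part of these marker lists in the results on the members was not tested.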

How the data were processed

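All 12 arrays were used. Per the labels, RNA was amplified and labeled with a single dye, and the submitters' processing notes name Agilent Feature Extraction 9.5.3.1. The deposited scanner files hold background-subtracted intensity values, made by the authors with that software and not scaled between arrays, with mean and local background intensities and flags; flags (unit other) are the authors' software's marks per spot. The authors also deposited a table of ratio values, each signal divided by the 75th percentile of its array, which served as an alternative. No coordinates of probes are printed because their build is not given in the sources used here.

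For the results, spot values marked as uneven or outliers were left out, 1327 in total over the 12 arrays, each of which held 43379 spots. Spots of a probe were averaged, and log2 intensity less the log2 of the 75th percentile of the array was taken. A probe with repeated spots was well above background when at least 0.5 of them were. The precision is limited by 3 arrays per group and, for dim probes, by signal over background. Group means were fitted with limma 3.58.1 in R 4.3.3 (lmFit, eBayes) over all 12 arrays, with Benjamini-Hochberg adjustment over the 22751 detected probes in each of 6 comparisons, and 95% intervals from the moderated SE. A probe that was not above background in a group received only a lower bound. The fits were tested on simulated data. The members, gene lists and motifs were chosen with earlier results of these data known, so none is independent support. From the lists were named genes called at 2-fold against BSA and the 3 largest changes among those that passed with both proteins; genes named beyond that rule were chosen after their values were seen. Likeness was the Pearson r over 12 arrays with probes called at 2-fold. The alternatives were other background corrections, scalings, filters, tests and batch terms, and leaving out each array. Plots were drawn in python 3.11.15 (matplotlib 3.10.9). The methods' t-test was the unequal-variance test that the study names. It entered the alternatives with and without adjustment, and without adjustment a probe passed at an unadjusted p under 0.05.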

Additional observations from a re-analysis of the deposited data

Results flagged for a closer look

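For 2 probes the effect of Rspo2 differed with and without Wnt3a by the interaction term of the limma fit. At *Cdk6* A_51_P489779 the interaction was 0.74 (SE 0.14, adjusted p = 0.0142 over 22751 probes): Rspo2 against BSA gave -0.48, with all 3 arrays lower, and both proteins against Wnt3a gave 0.27, with all 3 arrays higher. Over 22 alternatives the value ranged from 0.67 to 0.87 and was kept in 19, with adjusted p from 0.00942 to 0.548. The other probes of the gene gave 0.40 (adjusted p = 0.0733) and 0.83 (adjusted p = 0.273).

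At *Ccnd2* A_51_P433228 the interaction was -0.54 (SE 0.13, adjusted p = 0.0346): Rspo2 against BSA gave 0.29, with all 3 arrays higher, and both proteins against Wnt3a gave -0.25, with all 3 arrays lower. Over 22 alternatives it ranged from -0.60 to -0.44 and was kept in 9, with adjusted p from 0.0255 to 0.779. The other *Ccnd2* probes gave -0.21 each (adjusted p = 0.425 and 0.678). Within slides the first-slide Rspo2 array and the third-slide arrays with both gave -0.32 and 0.35 at the *Cdk6* probe and 0.24 and -0.32 at the *Ccnd2* probe.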

How the results depend on the processing

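Counts of member probes with an adjusted p under 0.05 are given in the order Rspo2, Wnt3a and both proteins against BSA, both against Wnt3a, and the interaction, and were 1, 4, 5, 1 and 2; the percentages are the shares of all probes tested that passed in the same fit, 16.8%, 31.5%, 39.2%, 4.27% and 8.9% here. The counts became 0, 0, 2, 0 and 0 with normexp background correction (0.0176%, 0.505%, 5.06%, 0.171% and 0.0132%), 0, 2, 2, 0 and 0 with no filter on dim probes (0.403%, 11.1%, 16.6%, 1.03% and 0.726%), and 0 in all 5 with slide as a term (0.431%, 0.796%, 2.51%, 1.38% and 0.743%). Quantile normalization gave 2 for Rspo2 (12.1%) and 3 for both (36.5%), and 1 in place of 0 for Wnt3a against Rspo2 (1.2%). The percentile over probes above background on all 12 arrays gave 2 for both (38.5%); it moved the median change of all probes by up to -0.12, with Wnt3a. A filter for probes above background on all 12 arrays gave 3 for Rspo2 (20.2%). Slide as a random block (correlation 0.136) gave 2 for both (29.1%), 0 for both against Wnt3a (3.34%) and 1 for the interaction (3.32%). The methods' t-test gave, unadjusted, 5 for Rspo2 (24.2%), 7 for Wnt3a (30.5%), 5 for both against Wnt3a (10.8%) and 3 for Wnt3a against Rspo2 (8.11%), and, adjusted, 0, 0 and 2 against BSA (0.00879%, 6.79% and 14.7%) and 0 for both against Wnt3a (0.0703%). Fitting only the arrays compared gave 0 for Rspo2 (5.66%) and 0 for both against Wnt3a (2.16%). At 2-fold the count of 1 with Wnt3a became 0 with normexp (0.158% of all), quantile (1.81%), the other percentile (3.53%), slide as a term (0.642%) and the adjusted t-test (0.725%), and the count of 1 with both became 2 with normexp (1.47%) and 0 with slide as a term (2.2%). The causes were not tested.

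With 1 array left out, the counts at adjusted p under 0.05 ran from 0 to 3, 2 to 5, 2 to 6, 0 to 1 and 1 to 3 (shares of all 2.06 to 18.3%, 21.7 to 31.9%, 29 to 41.8%, 2.1 to 9.37% and 2.93 to 12.6%), and were 0 for Wnt3a against Rspo2 (0.64 to 1.82%). At 2-fold they were 0 to 1 with Wnt3a (0 without Wnt3a replicate 3), where 2.15 to 3.19% of all probes were called. With both they were 1 to 2, where 4.75 to 5.57% of all were called. They were 0 in the other 4 comparisons. There the shares of all were 0.404 to 1.06% with Rspo2, 0.64 to 1.49% for both against Wnt3a, 0.175 to 0.324% for Wnt3a against Rspo2 and 1.22 to 3.25% for the interaction. Same-numbered replicates of different groups did not pair (r of deviations -0.41 to 0.27 over 18 pairs, over 0.1 in 4; -0.40 to 0.43 over 36 other pairs); with the replicate block 0 probes passed for both against Wnt3a (2.75%) and 1 for the interaction (3.21%). Of 1113 values of single probes in 13 alternatives, 64 fell short of the threshold and 22 newly passed. These alternatives include the methods' t-test without adjustment, where the threshold was on the unadjusted p. Of 1080 values with 1 array left out, 39 fell short and 8 newly passed. No passing value changed direction.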
